A study of Mus musculus with 12 samples.

Results

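The genes described here encode the cytosolic translation factors and the aminoacyl-tRNA synthetases of the mouse, as measured in testis RNA. They were the platform's gene symbols that begin with Eif, Eef, Etf1, Gspt or Eprs, or that consist of 1 letter followed by ars, with or without a final 1 or 2. The rule found 69 genes among 9930 named genes and 16255 features in all, and these 69 genes were covered by 105 probes. The rule used names only and no measured value. Of the 69 genes, 65 had values on enough arrays to be tested. Gars, Wars, Tars2 and the methyltransferase gene Eef1akmt1 did not, and no gene was left out for a low value.

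Testis RNA of 3 groups of male mice on a Castaneus background was hybridised in pairs on 12 two-colour cDNA arrays. The groups were Wobbler modifier (wr/mod in the design text), Wobbler (wr/wr) and wildtype (wt), and the labels give no age. Each channel held RNA pooled from 3 animals. Every pair had 4 arrays, 2 of them with exchanged dyes. Wobbler is a recessive mutation of Vps54, a subunit of a complex that tethers vesicles at the Golgi, and homozygous males are infertile. The labels do not say what the modifier is, nor whether the 4 arrays of a pair came from separate pools, so that p-values reflect array-to-array spread that may be technical. The values are log2 ratios of the first-named genotype over the second. Their sign is only likely, since it rests on the array titles and the usual order of the dyes. The way the 3 comparisons close their loop bears only on turning the dye-exchanged arrays. It would be the same with every sign reversed. Because only ratios were used, no expression level of a tissue marker could be checked.

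Translation begins when initiation factors bring the methionyl initiator tRNA and the small ribosomal subunit to an mRNA. eIF2 carries that tRNA, eIF2B recharges eIF2 with GTP, eIF3 is a large scaffold on the small subunit, and the eIF4 group recognises the cap and unwinds the leader. Elongation factors then deliver each aminoacyl-tRNA and move the ribosome along, and the release factors end the chain. The synthetases attach each amino acid to its tRNA, with separate enzymes for most amino acids in the cytosol and in mitochondria. In the testis, translation is known for its timing: spermatids store many mRNAs and translate them only after transcription has stopped. Because whole testis was used, fewer cells of a type and less RNA per cell cannot be told apart.

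Many synthetase genes are known targets of ATF4, a transcription factor made under amino acid shortage and other stress, and the ATF4 element therefore separates members of the family by sequence. RefSeq promoter windows of the GRCm38.p6 assembly, from 250 bases before to 50 bases after a gene's start, were at hand for 50 of the 69 genes. The letters TGATGNAA, searched on both strands, were in the windows of 6 of these 50 genes (12.0%), against 4.51% of 27025 genes. The 6 were Aars, Gars, Iars, Tars, Yars and Eif2s3x, so that 5 of the 10 cytosolic synthetases with a window held it. The 4 matches that lie before the start are printed because they show the element in the genes it groups. Each line runs 5′ to 3′ on the gene's strand, and capitals mark the match, which reads as the reverse complement of the searched letters.
Aars, chr8:111033690-111033777, plus strand: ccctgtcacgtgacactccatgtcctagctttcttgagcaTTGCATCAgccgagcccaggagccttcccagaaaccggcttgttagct
Eif2s3x, chrX:94212700-94212787, minus strand: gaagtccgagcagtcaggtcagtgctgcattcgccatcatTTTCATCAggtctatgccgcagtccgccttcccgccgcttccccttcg
Gars, chr6:55037931-55038000, plus strand: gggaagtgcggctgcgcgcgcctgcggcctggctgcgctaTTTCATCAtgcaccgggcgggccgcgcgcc
Tars, chr15:11399659-11399713, minus strand: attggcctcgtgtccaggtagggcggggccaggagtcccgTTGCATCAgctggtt
The match ends 105 bases before the start in Aars, 89 in Eif2s3x, 23 in Gars and 8 in Tars.

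Of the 10 motifs searched in the same windows, the ETS core CCGGAAG was in 34.0% of the family's windows, against 9.93% of all genes. It was in the windows of 17 of the genes, among them Eif1ax, Eif1b, Eif3c, Eif3m and Eef1b2. The related letters GGCGGAAG were in 12.0%, against 2.93% of all genes, and TTTCCG, which can overlap the ETS core, in 24.0%, against 10.04%. The CRE, TGACGTCA, was in Eef2 alone of the family (2.0%, against 2.03% of all genes), and its first 5 letters, TGACG, were in 42.0%, against 23.05%. CCAAT was in 44.0%, against 41.06%, and TATAAA in 8.0%, against 15.67%. The NRF1 motif was in Eif3k only of the family (2.0%, against 1.07%), and ACTACAA was in 6.0%, against 3.78%. These matches are a description of letters and not of bound sites.

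None of the 65 genes passed the threshold, a Benjamini-Hochberg adjusted p under 0.05 over 14729 features with limma, in any of the 3 comparisons. Over all features, 0.733% passed in Wobbler modifier over wildtype (0.0339% higher and 0.699% lower) and 0.414% in Wobbler modifier over Wobbler (0.115% higher and 0.299% lower). The share was 0.306% in Wobbler over wildtype (0.122% higher and 0.183% lower), so that a count of 0 among 65 is near the background. At an unadjusted p under 0.05 there were 4 genes of the family in Wobbler modifier over wildtype, all with negative ratios (6.15%, against 7.33% of all features, 2.11% positive and 5.22% negative). There were 4 in Wobbler modifier over Wobbler, of which 2 had positive ratios (6.15%, against 11.5%, with 7.03% positive and 4.47% negative). Wobbler over wildtype had 9, of which 4 had positive ratios (13.8%, against 15.7%, with 7.22% positive and 8.47% negative). The standard error of a gene's log2 ratio in Wobbler modifier over wildtype ran from 0.11 to 0.74 with a median of 0.19, against a median of 0.21 over all features.

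**Figure D1:**
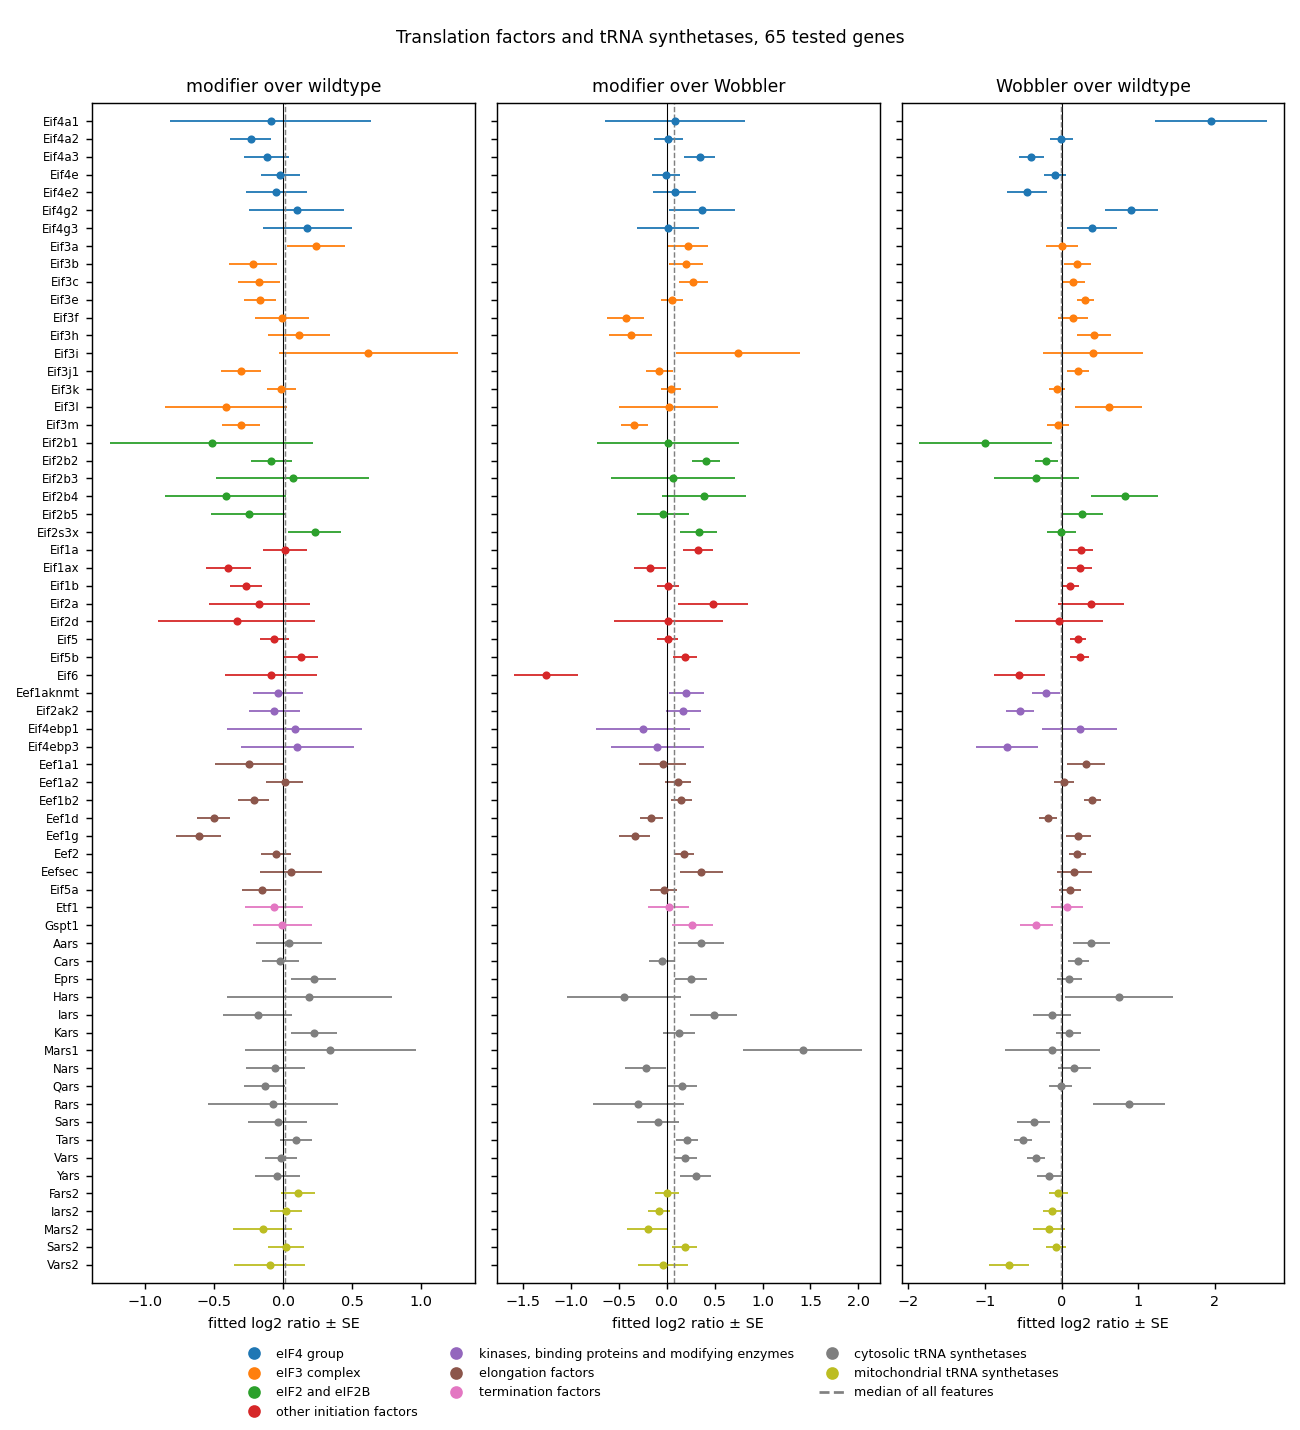
Fitted log2 ratio (x axis) of each of the 65 tested genes, coloured by role, in Wobbler modifier over wildtype, Wobbler modifier over Wobbler and Wobbler over wildtype; lines show ± SE and the dashed line the median of all features. Most ratios lie near 0, and the widest lines belong to genes with discordant arrays, such as Eif4a1, Eif2b1 and Mars1.

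As a whole the family lay close to 0. Its median log2 ratio was -0.05 in Wobbler modifier over wildtype, 0.06 in Wobbler modifier over Wobbler and 0.09 in Wobbler over wildtype, against medians over all features of 0.01, 0.08 and -0.01 in the same order. A negative ratio in Wobbler modifier over wildtype was found for 43 of 65 genes (66.2%, against 47.5% of all features), and the family's median lay 0.03 to 0.17 below that of all features on each of the 4 arrays. The ratio was negative on all 4 arrays for 10 of 65 genes (15.4%, against 10.4% of all features) and positive on all 4 for 1 gene, Eif2s3x (1.54%, against 8.69%). The sign in Wobbler modifier over Wobbler was positive on all 4 arrays for 3 of 62 genes with 4 values (4.84%, against 11.2%) and negative for 2 (3.23%, against 6.13%). In Wobbler over wildtype it was positive for 3 of 61 (4.92%, against 6.03%) and negative for 6 (9.84%, against 10.8%). The comparisons share their genotypes, so their values stand side by side and are not independent.

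Among the arrays, replicate 2 of Wobbler over wildtype stood apart, with an SD of 1.61 over all spots against a lowest SD of 0.62 elsewhere. On it, 17 of 64 genes of the family (26.6%) had ratios beyond 1 on the log2 scale in either direction, close to the 27.2% of all features there; on the other 11 arrays the share was 1.54% to 10.9%. Markers of other testis cells moved between the genotypes: 7 of 15 late spermatid markers were lower in Wobbler modifier than in wildtype testis and 5 of 15 lower than in Wobbler testis, with medians of -0.97 and -0.64. Of 9 Leydig cell markers, 2 and 1 were lower in these comparisons, with medians of -0.64 and -0.50. None of the 15 and none of the 9 passed in Wobbler over wildtype, with medians of -0.09 and 0.08. The 8 Sertoli markers had medians of -0.18, -0.06 and 0.03, and none passed. Of 5 meiotic spermatocyte markers, Syce2 was lower in Wobbler modifier than in wildtype testis (-0.94) and H1f6 lower in Wobbler than in wildtype testis (-1.14). Of 6 macrophage markers, Tyrobp was lower in Wobbler modifier than in wildtype testis (-0.68). None of 4 spermatogonia, 9 peritubular and vessel and 3 blood markers passed in any comparison. The part of these cell types in the ratios of the translation genes was not tested.

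Elongation factors had the family's smallest p-values in Wobbler modifier over wildtype. Eef1d and Eef1g encode the delta and gamma subunits of eEF1B, the complex that recharges the aminoacyl-tRNA carrier eEF1A with GTP. Eef1d had log2 ratios of -0.47, -0.28, -0.68 and -0.59 on replicates 1 to 4. Its fitted ratio was -0.51 ± 0.12 (SE, n = 4 arrays, as for the other fitted ratios except where 1 array lacked a value). That is 1.42-fold below an equal level, with an adjusted p of 0.121. All 4 arrays and all 3 of its probes had the same sign, the probes at -0.37, -0.55 and -0.59. Eef1g had ratios of -0.54, -0.45, -0.98 and -0.49, with a fitted ratio of -0.61 ± 0.16 and an adjusted p of 0.181. Both genes were negative on every array of this comparison, and neither passed. Array weights, scaling of the arrays, a loop model or single probes brought Eef1d under the threshold. Over the alternatives its adjusted p ran from 0.0038, with array weights, to 0.963. With array weights 709 of all features passed, against 108 in the main fit.

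The same subunits were less even against Wobbler. Over Wobbler, Eef1d with the modifier was at -0.14, 0.11, -0.55 and -0.06 (fitted -0.16 ± 0.12) and Eef1g at -0.10, 0.12, -0.56 and -0.81 (fitted -0.33 ± 0.16, adjusted p = 0.463). In Wobbler over wildtype, Eef1d was at 0.21, -0.21, -0.30 and -0.41 (fitted -0.18 ± 0.12). Its probes differed in sign there, at 0.26, -0.38 and -0.41. Eef1g in Wobbler over wildtype was at 0.99, 0.58, -0.15 and -0.56, positive on both arrays of one dye order and negative on both of the other. Eef1b2, the catalytic beta subunit, had the smallest p of the elongation factors in Wobbler over wildtype. Its ratios were 0.64, 0.88, -0.04 and 0.11, with a fitted ratio of 0.40 ± 0.11 and an adjusted p of 0.158, and here too the first dye order gave the high values. The median of all features was also higher in the first dye order there, at 0.12, 0.04, -0.23 and -0.10 on replicates 1 to 4. Eef1b2 in Wobbler modifier over wildtype was at -0.21 ± 0.11 (adjusted p = 0.823). Its direct ratio of Wobbler modifier over Wobbler exceeded that computed through wildtype by 0.76 ± 0.19, the smallest loop p of the family (adjusted p = 0.484; 0 genes of the family and 0.0272% of all features passed this test).

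**Figure D2:**
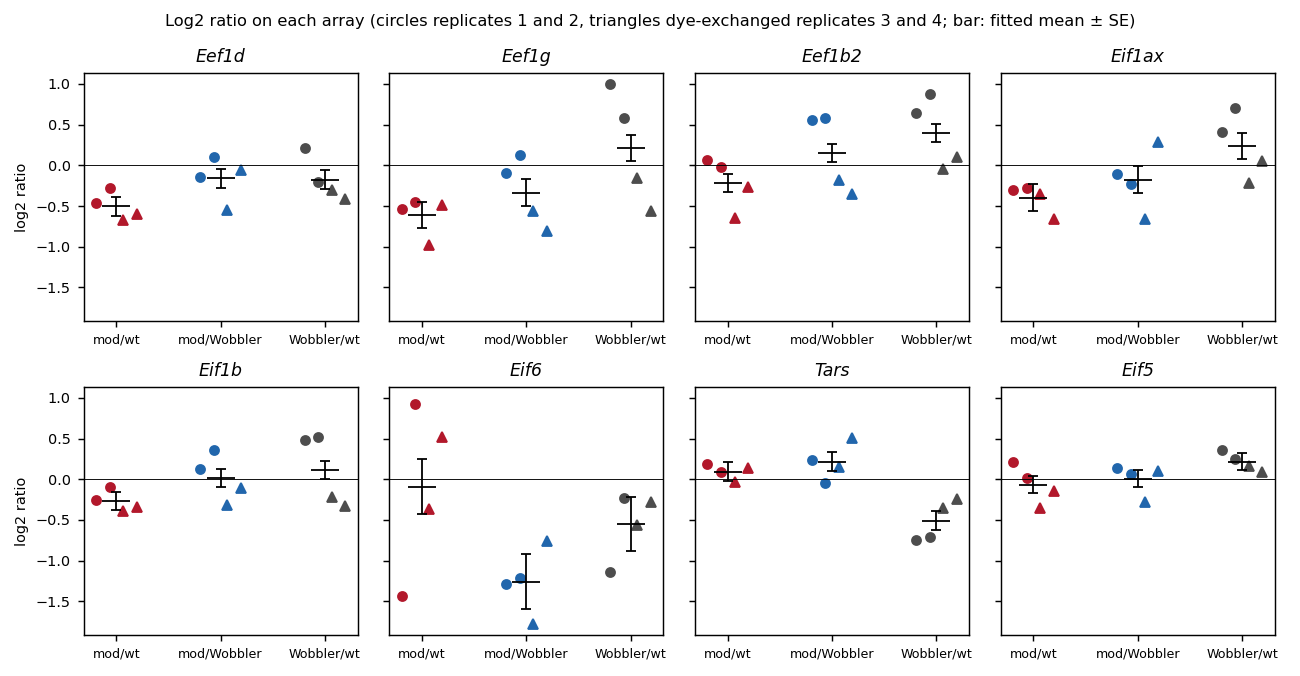
Log2 ratio (y axis) on each of the 4 arrays of the 3 comparisons for 8 genes, where mod stands for Wobbler modifier, circles are replicates 1 and 2, triangles the dye-exchanged replicates 3 and 4, and bars the fitted mean ± SE. Eef1d, Eef1g, Eif1ax and Eif1b are negative on all 4 arrays of Wobbler modifier over wildtype. Tars, with its probes averaged, is negative on all 4 of Wobbler over wildtype.

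None of the other elongation factors had an unadjusted p under 0.05 with its probes averaged. Eef1a1, which encodes the main carrier of aminoacyl-tRNA, had ratios of -0.01, -0.08, -0.68 and -0.22 in Wobbler modifier over wildtype (fitted -0.25 ± 0.25) and a fitted 0.31 ± 0.25 in Wobbler over wildtype. Its 2 probes in Wobbler over wildtype were at -0.31 and 0.94, the second with 3.56 on replicate 2. Its paralog Eef1a2 was at 0.01 ± 0.13, 0.12 ± 0.13 and 0.03 ± 0.13 in the 3 comparisons. The cDNA probes of such close paralogs may share target, which was not tested. Eef2, the factor that translocates the ribosome, was at -0.05 ± 0.11 in Wobbler modifier over wildtype, 0.18 ± 0.11 in Wobbler modifier over Wobbler and 0.20 ± 0.11 in Wobbler over wildtype. Eefsec, which delivers selenocysteine, and Eif5a, which eases stalled peptide bonds, were at 0.06 ± 0.23 and -0.16 ± 0.14 in Wobbler modifier over wildtype. In Wobbler modifier over Wobbler they were at 0.36 ± 0.23 and -0.03 ± 0.14. Over the 8 elongation factors the median was -0.19, 0.04 and 0.18 in the 3 comparisons. Negative ratios were found for 6 of 8 in the first, and positive ratios for 4 of 8 in the second and 7 of 8 in the last. Over all features 47.5% were negative in the first, and 61.6% and 49.2% positive in the other comparisons. In Wobbler over wildtype, Eef1a2 and Eefsec were positive on replicate 2 only, at 0.75 and 1.31. Eef1a1 had 1.59 on that array, against -0.33 to 0.07 on the others.

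Of the 11 eIF3 genes, 8 had negative ratios in Wobbler modifier over wildtype and 9 had positive ratios in Wobbler over wildtype, and none passed. Their medians were -0.17, 0.04 and 0.20. Over all features, 47.5% were negative in Wobbler modifier over wildtype and 49.2% positive in Wobbler over wildtype. The complex's median lay 0.03 to 0.18 below that of all features on the 4 arrays of Wobbler modifier over wildtype, and 0.09 to 0.54 above it on those of Wobbler over wildtype. On the arrays of Wobbler modifier over Wobbler it lay on both sides, from 0.14 below to 0.06 above. Eif3m, a subunit of the complex, was at -0.21, -0.08, -0.45 and -0.48 in Wobbler modifier over wildtype (fitted -0.30 ± 0.14). The same gene in Wobbler modifier over Wobbler was at 0.22, -0.02, -0.55 and -1.005 (fitted -0.34 ± 0.14, adjusted p = 0.393; -0.18 without replicate 4). Eif3j1, a loosely bound subunit, was at 0.02, -0.09, -0.70 and -0.45 over wildtype (fitted -0.31 ± 0.14). For both genes, replicates 3 and 4, on which the dyes were exchanged, gave the lower values in each of these comparisons. The median of all features was lower on these arrays too. It was at 0.16, 0.13, -0.19 and -0.10 in Wobbler modifier over wildtype and at 0.16, 0.19, -0.07 and -0.03 in Wobbler modifier over Wobbler.

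Eif3e had the smallest p of the complex in Wobbler over wildtype, with ratios of 0.75, 0.21, 0.05 and 0.22, all positive (fitted 0.31 ± 0.11, adjusted p = 0.254; 0.21 without replicate 1). Eif3h was at 1.01, -0.01, 0.46 and 0.24 in the same comparison (fitted 0.42 ± 0.23; 0.71 without replicate 2). Eif3c, a core subunit, was negative on all 4 arrays of Wobbler modifier over wildtype, at -0.28, -0.03, -0.22 and -0.18 (fitted -0.18 ± 0.15). Eif3f had a ratio of -0.43 ± 0.20 in Wobbler modifier over Wobbler, from arrays at -0.39, -1.04, 0.17 and -0.46, and of -0.24 without replicate 2. The gene value of Eif3k lay within 0.24 of 0 on every array, but its 2 probes had opposite signs on all 4 arrays of Wobbler modifier over wildtype, at a fitted 0.29 ± 0.10 and -0.32 ± 0.16. Eif3i and Eif3l were the most variable: Eif3i reached 3.90 on replicate 1 of Wobbler modifier over Wobbler and Eif3l -2.18 on replicate 3 of Wobbler modifier over wildtype. The 2 probes of Eif3a, the largest subunit, were at 0.39 and -0.37 in Wobbler over wildtype.

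**Figure D3:**
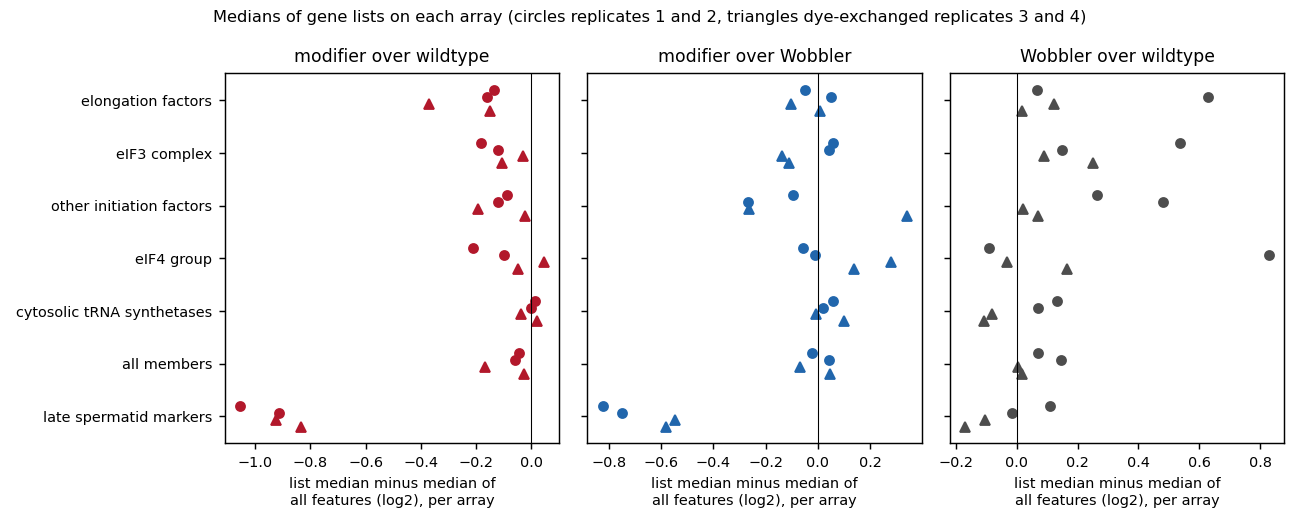
Median log2 ratio of 5 role groups, of the whole family (all members) and of the late spermatid markers on each array, minus the median of all features on that array (x axis); circles are replicates 1 and 2 and triangles the dye-exchanged replicates 3 and 4. The eIF3 and elongation groups, the other initiation factors and all members lie below 0 on all 4 arrays of Wobbler modifier over wildtype. The same lists lie above 0 on all 4 arrays of Wobbler over wildtype. In Wobbler modifier over Wobbler each of them lies on both sides of 0. The late spermatid markers lie farther below 0 than these lists in both comparisons of Wobbler modifier.

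The eIF4 group gave large ratios in Wobbler over wildtype that rested on 1 array. Eif4a1 encodes the cap-associated RNA helicase and was at 0.04, 6.00, 1.37 and 0.40, with a fitted ratio of 1.95 ± 0.73 (adjusted p = 0.257). Without replicate 2 it was 0.61. Eif4g2, which encodes a scaffold that works without the cap-binding protein, was at 0.39, 3.04, 0.23 and -0.01 (fitted 0.91 ± 0.34, adjusted p = 0.258), and at 0.28 without replicate 2. In Wobbler modifier over wildtype Eif4a1 lay between -0.16 and 0.03 on the 4 arrays and Eif4g2 between -0.28 and 0.39.

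Eif4a2, another form of the helicase, was at -0.05, -0.23, -0.30 and -0.35 in Wobbler modifier over wildtype (fitted -0.23 ± 0.15). Its signs were mixed in the other comparisons, with fitted ratios of 0.02 ± 0.15 and -0.01 ± 0.15. Eif4a3, a helicase of the exon junction complex, was at 0.03, 0.17, 0.41 and 0.76 in Wobbler modifier over Wobbler (fitted 0.34 ± 0.16, adjusted p = 0.452). It was at -0.29, -0.06, -0.26 and -0.96 in Wobbler over wildtype (fitted -0.39 ± 0.16, adjusted p = 0.290). Eif4a3 therefore had positive ratios on all 4 arrays of the first and negative ratios on all 4 of the second, but passed in neither, and without replicate 4 the fitted ratios were 0.19 and -0.18. The cap-binding gene Eif4e, with 4 probes, was at -0.02 ± 0.14, -0.01 ± 0.14 and -0.08 ± 0.14. Its relative Eif4e2, a repressor that binds the cap, was at 0.21, -1.54 and -0.25 on replicates 1, 3 and 4 of Wobbler over wildtype (fitted -0.45 ± 0.26), and at -0.02 without replicate 3. The group's medians were -0.05, 0.08 and -0.01.

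Among the genes of eIF2 and its exchange factor eIF2B, Eif2b2, the beta subunit of eIF2B, had the smallest p. Its ratios in Wobbler modifier over Wobbler were 0.23, 0.59, 0.11 and 0.71, all positive (fitted 0.41 ± 0.15, adjusted p = 0.326; 0.23 without replicate 4). Eif2b4, the delta subunit, was positive on the same 4 arrays at 0.13, 0.52, 0.40 and 0.50 and negative on the 4 of Wobbler modifier over wildtype at -0.57, -0.04, -0.57 and -0.47. Its ratio in Wobbler over wildtype was 0.82 ± 0.44 with 3.32 on replicate 2, and 0.01 without that array. Eif2s3x, the X-linked gamma subunit of eIF2 whose promoter holds the element printed above, was at 0.35, 0.34, 0.16 and 0.06 in Wobbler modifier over wildtype (fitted 0.23 ± 0.19). Eif2b1 ranged from -4.10 to 1.11 over its 11 values and Eif2b3 from -2.54 to 1.69 over as many. The group's medians were -0.17, 0.20 and -0.10, with 5 of 6 positive in Wobbler modifier over Wobbler, where 61.6% of all features were positive.

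The initiation factors outside these complexes included the largest fitted negative ratio of the family. Eif6, which keeps the ribosomal subunits apart, was at -1.29, -1.21, -1.77 and -0.75 in Wobbler modifier over Wobbler, with a fitted ratio of -1.26 ± 0.33 and an adjusted p of 0.169. That value came from 1 of its 2 probes: this probe had -2.98, -2.56, -3.24 and -1.35 (fitted -2.53 ± 0.66). The other had 0.40, 0.13, -0.31 and -0.15 (fitted 0.02 ± 0.12). The discordant probe was also uneven in Wobbler modifier over wildtype, between -2.82 and 1.65. The 2 probes of Eif6 thus did not give the same picture of the gene.

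Eif1ax and Eif1b take part in finding the start codon, and both were negative on all 4 arrays of Wobbler modifier over wildtype. Eif1ax was at -0.30, -0.28, -0.35 and -0.66 (fitted -0.40 ± 0.16, adjusted p = 0.590). Eif1b was at -0.26, -0.09, -0.39 and -0.34 (fitted -0.27 ± 0.11, adjusted p = 0.631). Eif1ax passed with array weights, at -0.41 and an adjusted p of 0.0327. Its close relative Eif1a was at 0.02 ± 0.16 in the same comparison and at 0.33 ± 0.16 in Wobbler modifier over Wobbler.

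Eif5, the GTPase activator of eIF2, was positive on all 4 arrays of Wobbler over wildtype, at 0.36, 0.25, 0.17 and 0.09 (fitted 0.22 ± 0.10, adjusted p = 0.346). Its 2 probes were apart: one was at 0.74, 0.81, 0.47 and 0.57 (fitted 0.65 ± 0.10), and passed when probes were tested singly (adjusted p = 0.0224). The other was at -0.21 ± 0.16. Eif5b, which joins the large subunit, was at 0.13 ± 0.12, 0.19 ± 0.12 and 0.24 ± 0.12. Over all 32 initiation factors, 23 were negative in Wobbler modifier over wildtype, 24 positive in Wobbler modifier over Wobbler and 20 positive in Wobbler over wildtype, and the medians were -0.09, 0.05 and 0.18. Over all features 47.5% were negative in the first comparison, and 61.6% and 49.2% positive in the other two.

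**Figure D4:**
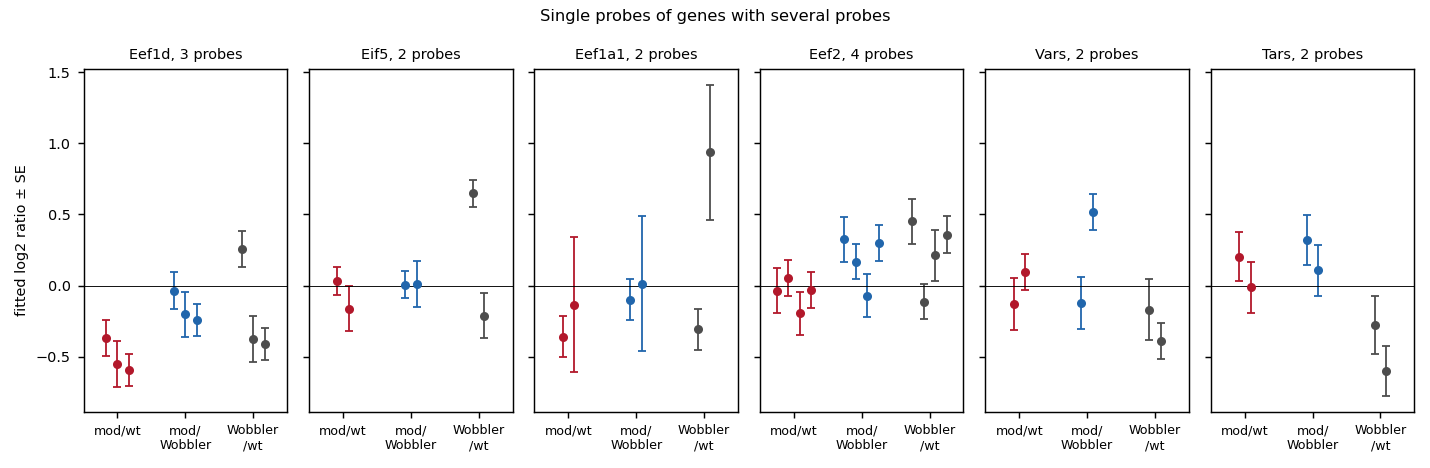
Fitted log2 ratio (y axis, ± SE) of each probe of 6 genes with several probes in the 3 comparisons, where mod stands for Wobbler modifier. The 3 probes of Eef1d are all negative in Wobbler modifier over wildtype. In Wobbler over wildtype the probes of Eef1d, Eif5, Eef1a1 and Eef2 have mixed signs.

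Among the regulators of initiation, Eif2ak2, the kinase PKR that phosphorylates eIF2 in response to double-stranded RNA, was negative on all 4 arrays of Wobbler over wildtype. Its ratios were -0.10, -1.22, -0.62 and -0.22 (fitted -0.54 ± 0.19, adjusted p = 0.226). Both probes had negative fitted ratios, at -0.60 and -0.49, but the first was positive on replicate 1, at 0.39. Without replicate 2 the fitted ratio of the gene was -0.24. Eif2ak2 in Wobbler modifier over wildtype was at -0.06 ± 0.19. Eif4ebp3, a binding protein that sequesters eIF4E, was at -1.63, -1.28, -0.09 and 0.14 in Wobbler over wildtype (fitted -0.71 ± 0.41), and leaving out 1 of these arrays at a time gave -1.08 to -0.32. Neither release factor had an unadjusted p under 0.05 with its probes averaged. Etf1, which reads the stop codon, was at -0.07 ± 0.21, 0.02 ± 0.21 and 0.07 ± 0.21. In Wobbler modifier over Wobbler its probe with enough values to be fitted singly was at 0.43 ± 0.17 (adjusted p = 0.360). The sparse probe of Etf1 had -1.30 and -0.78 on replicates 1 and 2 there. Gspt1, the GTPase partner of Etf1, was at -0.01 ± 0.21, 0.27 ± 0.21 and -0.33 ± 0.21, the last negative on all 4 arrays when its probes were averaged. The probes of Gspt1 with enough values to be fitted singly were at -0.04 ± 0.13 and -0.33 ± 0.13 in Wobbler over wildtype. On replicate 1 they were at 0.05 and 0.01, and the sparse probes of the gene at -0.71 and -1.85.

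The 14 tested cytosolic synthetases had fitted ratios between -0.18 and 0.34 in Wobbler modifier over wildtype, with a median of -0.02. Their medians were 0.18 in Wobbler modifier over Wobbler and 0.04 in Wobbler over wildtype. The arrays of a gene could lie far apart: Hars was at 1.96, 0.13, -2.67 and 1.34 in Wobbler modifier over wildtype (fitted 0.19 ± 0.60). Tars, which charges threonine tRNA, had the smallest p of the family in Wobbler over wildtype. Its ratios were -0.74, -0.71, -0.35 and -0.24, negative on all 4 arrays, and the fitted ratio was -0.51 ± 0.12 (adjusted p = 0.121). Its 2 probes were at a fitted -0.28 and -0.60, but their low values were on different arrays. The first probe was at 0.07, -0.66 and -0.38 on replicates 1, 3 and 4. The second was at -1.55, -0.71, -0.05 and -0.09 on replicates 1 to 4. The even values of the gene thus came from averaging probes that did not share a pattern. Tars in Wobbler modifier over wildtype was at 0.19, 0.08, -0.03 and 0.14 (fitted 0.10 ± 0.12), and in Wobbler modifier over Wobbler at 0.24, -0.05, 0.15 and 0.51 (fitted 0.21 ± 0.12). The 4 arrays of Wobbler over wildtype lay below 0, and those of the other comparisons lay mostly above it.

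Vars, for valine, was at 0.06, -0.36, -0.39 and -0.67 in Wobbler over wildtype (fitted -0.34 ± 0.12, adjusted p = 0.226). Sars, for serine, was at -0.01, 0.07, -1.43 and -0.10 there, and its fitted -0.37 ± 0.21 became -0.01 without replicate 3. Mars1, for methionine, was at 1.06, 4.83, 0.24 and -0.46 in Wobbler modifier over Wobbler (fitted 1.42 ± 0.62, adjusted p = 0.423), and at 0.39 without replicate 2. Rars, for arginine, had 3.67 on replicate 2 of Wobbler over wildtype against -0.52 to 0.60 on the others. The highest values of Mars1 and Rars were thus each on 1 array.

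The 4 tested synthetases with the ATF4 element had positive ratios in Wobbler modifier over Wobbler, where 9 of 14 cytosolic synthetases and 61.6% of all features were positive, and mixed signs in the other comparisons. In Wobbler modifier over Wobbler, Aars, Iars, Tars and Yars were at 0.36 ± 0.24, 0.49 ± 0.25, 0.21 ± 0.12 and 0.30 ± 0.16. The same genes in Wobbler modifier over wildtype were at 0.04, -0.18, 0.10 and -0.04, and in Wobbler over wildtype at 0.39, -0.13, -0.51 and -0.16. Gars, the remaining one, had only 2 values in Wobbler modifier over wildtype, 0.00 and -0.09. Of 17 tested ATF4 target genes outside the family, 0 passed in any comparison, with medians of -0.01, 0.04 and -0.09. Atf4 itself was at 0.04 ± 0.12, -0.00 ± 0.12 and -0.13 ± 0.12. The widest ratios of the list were in Wobbler modifier over Wobbler. Sesn2, a stress-induced inhibitor of mTORC1, was at 3.25, 0.33 and 3.92 on replicates 2 to 4 there (fitted 2.44 ± 0.67, adjusted p = 0.223). Psph, the last enzyme of serine synthesis, was at -3.65, 0.58 and -2.89 on replicates 1, 2 and 4 (fitted -2.25 ± 0.83, adjusted p = 0.351). In both genes 1 array stood far from the others. Asns, the asparagine synthetase, was at -0.36, -0.35 and -0.31, each ± 0.17. Slc3a2, an amino acid transporter subunit, was at -0.30 ± 0.14 in Wobbler modifier over wildtype (adjusted p = 0.722), and Psat1, of serine synthesis, at 0.69 ± 0.30 in Wobbler over wildtype (adjusted p = 0.313). Nupr1, a stress-induced chromatin protein, was at -0.14, -0.58, -0.82 and -0.41 in Wobbler over wildtype (fitted -0.49 ± 0.12, adjusted p = 0.129).

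The mitochondrial synthetases were near 0 against wildtype with the modifier, with a median of 0.02 and a range of -0.15 to 0.11 over 5 tested genes. All 5 had negative ratios, with a median of -0.13, in Wobbler over wildtype, where 50.8% of all features were negative. Vars2, for valine, was at -0.55, -0.74, -1.45 and -0.01 there (fitted -0.69 ± 0.26, adjusted p = 0.258), and at -0.39 without replicate 3. Fars2, Iars2, Mars2 and Sars2 lay between -0.17 and -0.04 in that comparison, with SEs of 0.12 to 0.21. Iars2 had 6 probes, which ran from -1.09 to 0.27 in Wobbler modifier over Wobbler and from -0.93 to 0.22 in Wobbler over wildtype. Of 10 mitochondrial translation factors outside the family, 0 passed. Tufm, the mitochondrial carrier of aminoacyl-tRNA, was at -0.37 ± 0.14 in Wobbler over wildtype (adjusted p = 0.261). Qrsl1 and Gatb, subunits of the mitochondrial glutaminyl-tRNA amidotransferase, were at 0.44 ± 0.28 and 0.17 ± 0.13 in Wobbler modifier over wildtype and at -0.38 ± 0.28 and 0.17 ± 0.13 in Wobbler modifier over Wobbler. Gatb was at -0.27 ± 0.13 in Wobbler over wildtype.

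Translation genes that the naming rule does not reach were set beside the family, from a list of 29 tested genes. None of the 29 passed in any comparison, and their medians were -0.00, 0.10 and 0.08. Pabpc1, the poly(A)-binding protein that links the tail of an mRNA to its cap, was at 1.12, 0.72, 0.38 and 0.36 in Wobbler over wildtype (fitted 0.65 ± 0.12, adjusted p = 0.0829). In Wobbler modifier over Wobbler it was also positive on all 4 arrays, at 0.41, 0.74, 0.13 and 0.21 (adjusted p = 0.295). Paip2, which displaces Pabpc1 from mRNA, was at -0.46, -0.42, -1.29 and -0.67 in Wobbler modifier over wildtype (fitted -0.71 ± 0.16, adjusted p = 0.114). It was at -0.26, -0.57, -0.94 and -0.40 in Wobbler modifier over Wobbler (fitted -0.54 ± 0.16, adjusted p = 0.237). Larp4, an RNA-binding protein of the poly(A) tail, was at 0.30, 0.40, 0.88 and 0.25 in Wobbler modifier over wildtype (fitted 0.46 ± 0.15, adjusted p = 0.320). Rptor, the mTORC1 subunit upstream of eIF4E binding proteins, was at 0.55, 1.14, 1.43 and 1.41 in Wobbler over wildtype (fitted 1.13 ± 0.26, adjusted p = 0.121). Each of these 4 genes had 1 sign on all 4 arrays of the comparison named, and none passed. They were picked for the smallest p-values of the list, which favours arrays of 1 sign. Over all features, 8.69% were positive and 10.4% negative on all 4 arrays of Wobbler modifier over wildtype. The shares were 11.2% and 6.13% in Wobbler modifier over Wobbler, and 6.03% were positive in Wobbler over wildtype.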

How the data were processed

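The values the authors deposited are log2 ratios, 1 for each spot of an array. How they were scanned, background-corrected and normalized is not given in the sources used here, and log2 was inferred from the numbers. The labels name a pool of 3 animals per channel; the labelling protocol mentions a reference pool of 6 control animals, and the channel labels were followed. A value above 15 repeated at least 10 times on an array was treated as missing. Replicates 3 and 4 of each comparison, whose dyes were exchanged, were multiplied by -1. Read this way the 3 comparisons closed their loop only loosely, with a correlation of 0.126 over 14729 features, against 0.0062 unturned. Arrays of the same comparison also agreed weakly after turning. Their r ran from -0.11 to 0.18 over all features and from -0.40 to 0.42 over the family. The platform annotation gave 14030 of 20355 probes a single symbol, 5 several and 6320 none. Probes of a symbol were averaged per array, and a feature was tested where each comparison had values on 3 or more of its 4 arrays. Arrays held 18325 to 19584 usable spots, and their number limits the precision.

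The ratios of all 14729 features were fitted in R 4.3.3 (limma 3.58.1, lmFit then eBayes); each feature had a mean for each comparison and a dye term over all 12 arrays, so an SE reflects the spread over all arrays. Adjusted p is Benjamini-Hochberg over all features, with a threshold of 0.05. Named genes were those past the threshold, the 8 with the smallest p per direction and comparison, and the 2 with the smallest p per role group; of the other lists, those past the threshold and the 2 with the smallest p per comparison. Further genes are given to complete a role group and were chosen after their values were seen. The family, the lists and the rule were chosen with earlier results of these data known. Alternatives changed centring, scaling, dye term, filter, model, weights, probe averaging, direction and the set of arrays.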

Additional observations from a re-analysis of the deposited data

Results flagged for a closer look

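Of 124 groups of 4 arrays examined for the named genes, 6 held an array far from the other 3 by Dixon's criterion, where chance gives about 1 in 20. In Wobbler over wildtype, Eif2b4 had 3.32 on replicate 2 against -0.34 to 0.18 on the others, and Eif4g2 had 3.04 on the same array against -0.01 to 0.39. This is the array with the widest spread over all spots. Sars had -1.43 on replicate 3 against -0.10 to 0.07, and Sars2 had 0.50 on replicate 1 against -0.30 to -0.24. Eef1g had -0.98 on replicate 3 of Wobbler modifier over wildtype against -0.54 to -0.45, all of 1 sign. Eif5 had -0.28 on replicate 3 of Wobbler modifier over Wobbler against 0.07 to 0.14.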

How the results depend on the processing

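The fit was repeated under 25 alternatives. For Wobbler modifier over wildtype the number of genes of the family past the threshold was 2 with arrays scaled to equal spread (Eef1d and Eef1g), 1 with the loop model (Eef1d), 3 with array weights (Eef1d, Eef1g and Eif1ax) and 1 with single probes (Eef1d), and 0 otherwise. With these settings the count over all features was 483, 224, 709 and 158, against 108. For Wobbler over wildtype it was 1 with single probes (Eif5), and in Wobbler modifier over Wobbler 0 throughout. Leaving out each array in turn gave 0 to 0 in every comparison, with Eef1d at -0.53 to -0.46, Tars at -0.58 to -0.46 and Eif6 at -1.41 to -1.03. Of 3144 recomputed values of named genes, 3136 kept their side of the threshold, 8 passed it, and none that had passed was lost, since none had. Read unturned, Eef1d was at 0.13 and Eef1g at 0.12. Arrays of different comparisons with the same replicate number deviated together only weakly (r from -0.03 to 0.07). Those with different numbers had r from -0.09 to 0.12. Arrays of the same comparison correlated only from -0.11 to 0.18 over all features, so this check cannot show whether the numbers pair the pools. With the replicate block in place of the dye term, 0 genes of the family passed in each comparison. The fitted ratios of Eef1d and Tars stayed at -0.51. The features passing fell from 108 to 58 in Wobbler modifier over wildtype. They fell from 61 to 24 in Wobbler modifier over Wobbler and from 45 to 22 in Wobbler over wildtype. The causes were not tested. No intensities were used, so dim spots could not be filtered.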

Other observations

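Among 15 tested germ cell regulators, listed mainly for translational control, Spz1 was the only one to pass, and it was lower in both comparisons of Wobbler modifier testis. Spz1 encodes a transcription factor of the testis rather than a translation regulator, and it was listed with its result known. Its ratios were -1.18, -1.28, -1.66 and -1.20 in Wobbler modifier over wildtype (fitted -1.33 ± 0.13, adjusted p = 0.0012) and -1.07, -1.35, -1.47 and -1.31 in Wobbler modifier over Wobbler (fitted -1.30 ± 0.13, adjusted p = 0.00529). In Wobbler over wildtype it was at 0.48 ± 0.13 (adjusted p = 0.152). The RNA-binding gene Fxr1 was at -0.37, -0.19, -0.82 and -0.60 in Wobbler modifier over wildtype (fitted -0.50 ± 0.13, adjusted p = 0.161). Ddx4, the germ cell helicase, was at 0.57, 0.59, 0.49 and 0.29 in Wobbler over wildtype (fitted 0.49 ± 0.12, adjusted p = 0.129). Late spermatid markers were lower in the same comparisons as Spz1, with medians of -0.97 and -0.64, and their part in its ratio was not tested.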
